A study of Mus musculus with 6 samples.

Results

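Elastin, the fibrillin microfibril and its partners, and the lysyl oxidases that cross-link elastin were followed at the RNA level in atherosclerotic arteries of mice with and without Col15a1, the gene for the alpha chain of type XV collagen. The 9 genes were Eln, Fbn1, Fbln1, Fbln5, Emilin1, Mfap4, Lox, Loxl1 and Loxl2, taken by their symbols from the deposited count table. They are 9 of the 24391 genes in that table, and all 9 passed the filter on low counts that left 15937 genes for testing. RNA had been sequenced from 3 wild-type (WT) and 3 Col15a1-/- (KO) mice, 1 library per animal and 6 in all. Both groups had a C57BL/6 strain background and had been fed a Western diet for 18 weeks. The tissue is labelled atherosclerosis lesion and was taken from the BCA (the usual abbreviation for the brachiocephalic artery), and its cells are labelled as a mixture that includes smooth muscle cells and macrophages. The series title calls the deletion specific to smooth muscle cells, while the sample labels give only the genotype. The promoter driving a Cre recombinase, the age, and any further allele such as an Apoe deletion are not given in the sources used here.

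Elastic fibres let large arteries stretch and recoil. Smooth muscle cells and fibroblasts secrete tropoelastin, the soluble monomer, which is deposited on microfibrils built mainly of fibrillin-1, and fibulin-5, EMILIN-1 and MFAP4 help to align elastin on them. Lysyl oxidases, copper enzymes that are secreted as precursors, then oxidise lysines so that elastin and collagen chains become covalently cross-linked. In atherosclerosis, elastases of macrophages and smooth muscle cells break these fibres.

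Reads of the targeted gene checked the labels first. Col15a1 had 12629, 12111 and 12973 counts in WT 1 to 3 and 4487, 4542 and 2307 in KO 1 to 3, so no KO library was at 0, and each was lower than any WT library. Its level was 494 ± 83.8 CPM (counts scaled to library size; SD, n = 3) in WT and 161 ± 60.6 in KO, a log2 difference of -1.62 ± 0.33 (SE), with an adjusted p of 0.587 in edgeR's quasi-likelihood test and of 0.00219 in DESeq2. Total counts ran from 22223584 to 26982005 per library. On the first principal component, with 64.6% of the variance, WT 2 and KO 3 were separated from the remaining 4 libraries. Their summed sympathetic neuron markers reached 2131 and 4388 CPM against 160.6 to 238.3 CPM elsewhere. Summed smooth muscle markers (Myh11 and Acta2 the highest of 6) were 5324 to 9444 CPM in WT and 5645 to 14140 CPM in KO, summed fibroblast markers (Dcn and Lum the highest of 6) 3993 to 5830 and 2460 to 4802 CPM, and summed macrophage markers (Lyz2 and C1qb the highest of 6) 3943 to 4851 and 1058 to 3060 CPM. Summed adipocyte markers were 91.88 to 337.9 CPM in WT and 443.0 to 519.6 in KO, and summed cartilage markers 305.1 to 452.3 and 88.79 to 302.5 CPM. No marker of these lists was at 0 in all libraries, and no marker passed the test. In such mixed tissue, fewer cells of a type and less RNA per cell cannot be told apart.

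No member of the elastic fibre set passed the test between KO and WT. Their smallest adjusted p was 0.630, for Loxl2 (edgeR quasi-likelihood test with Benjamini-Hochberg adjustment over all 15937 genes), and DESeq2 and limma-voom also called 0 of the 9. In edgeR no gene of any kind was called (0.0%), with 1275 genes at an unadjusted p under 0.05, 641 higher and 634 lower in KO; DESeq2 called 63 genes, 0.422% of those to which it gave an adjusted p, and limma-voom 0. At an unadjusted p under 0.05, 0 of the 9 were lower in KO, beside 3.98% of all genes. A negative log2 fold change was seen for 7 of the 9, beside 39.1% of all genes, and the median was -0.37 for the members and 0.068 for all genes. Only Loxl2 had every KO library below every WT library (8.38% of all genes), and no member had every KO library above every WT library (8.33% of all genes).

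**Figure D1:**
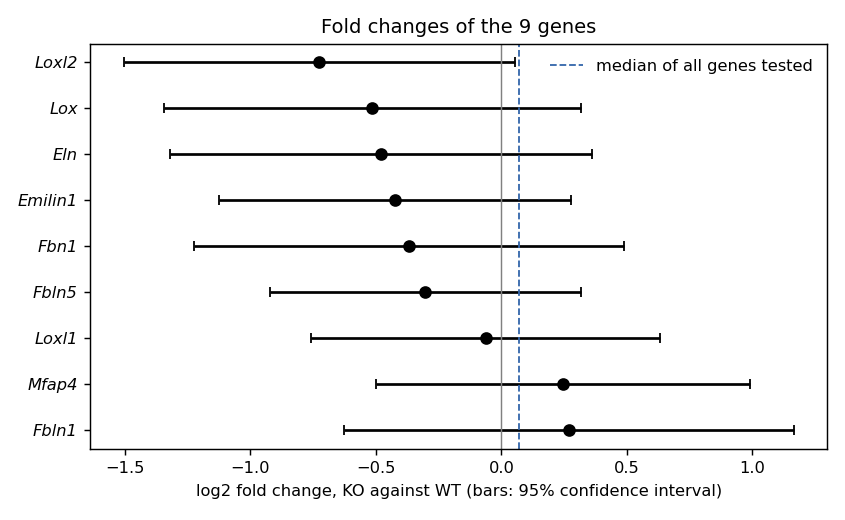
Log2 fold change of each of the 9 genes (points, KO against WT, edgeR) with its 95% confidence interval (bars) and the median of all genes tested (dashed line). All 9 intervals include 0, and the estimates run from -0.73 for Loxl2 to 0.27 for Fbln1.

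The lowest values came from 2 libraries. KO 3 was the lowest library for 7 of the 9 genes and WT 2 for the other two, Fbln1 and Mfap4, whereas WT 1 was the highest for 5 genes, KO 2 for 3 and WT 3 for 1. KO 3 lay below every WT library for 7 genes, KO 1 for 4 and KO 2 for 1. Together the 9 genes took 0.676%, 0.490% and 0.525% of the counts in WT 1 to 3 and 0.415%, 0.588% and 0.277% in KO 1 to 3. KO 2 thus lay within the WT range, and KO 3 had the lowest share of the 6 libraries. KO 3 also had the highest neuron markers and the lowest macrophage and fibroblast markers, and the part of these in its values was not tested. With WT 2 and KO 3 left out, 7 of the 9 genes were again negative, and their median was -0.27 beside 0.0026 for all genes.

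**Figure D2:**
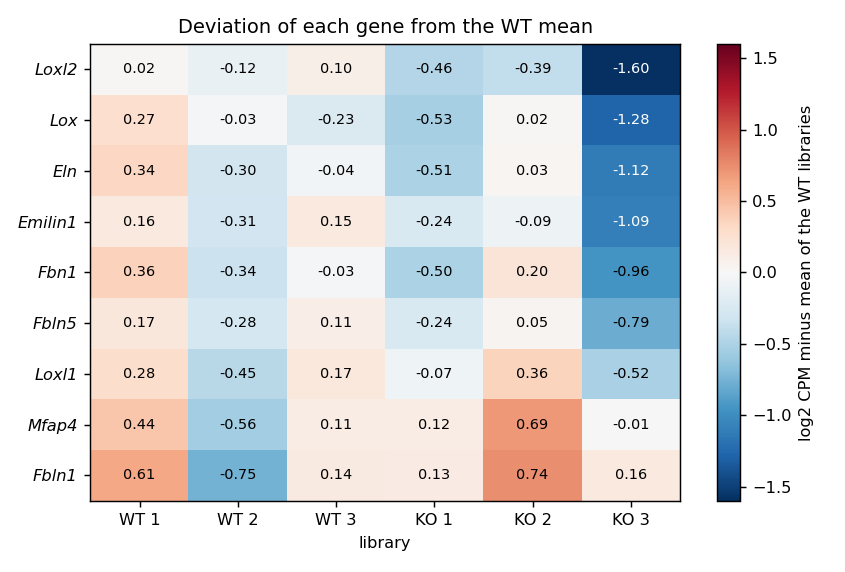
Log2 CPM of each gene (rows) in each library (columns) minus the mean of the WT libraries, from blue (lower) to red (higher). KO 3 has the lowest value of 7 of the 9 rows, and KO 2 stays between -0.39 and 0.74.

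Eln encodes tropoelastin and lies at chr5:135178466-135223124 on the minus strand (mm9, the build of the count table), with 37 exon blocks. It was read at 2637, 1698 and 2030 CPM in WT 1 to 3 and at 1464, 2136 and 960.2 CPM in KO 1 to 3. KO 1 and KO 3 were below all WT libraries and KO 2 was inside their range, so the groups overlapped. The means were 2122 ± 476 CPM (SD, n = 3) in WT and 1520 ± 590 in KO, and the log2 fold change was -0.48 ± 0.34 (SE) with an adjusted p of 0.780 in edgeR. It was -0.81 without KO 2, -0.29 without WT 1 and -0.24 without KO 3. Per length, Eln was the most abundant of the 9 in every library, at 561 ± 126 RPKM (CPM per kilobase of exon) in WT and 402 ± 156 in KO, and it ranked 46th of 15937 genes by its mean WT RPKM.

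The 3′ untranslated region of Eln holds a feature shared by some of the 9 genes that the choice of genes did not use, letters that pair with the seed of the miR-29 family. These microRNAs are known repressors of extracellular matrix genes, and they were not measured here. The mature sequences, shown because all 3 share 1 seed, are from RefSeq (GRCm38.p6), with the seed (bases 2 to 8) in capitals.
mmu-miR-29a-3p: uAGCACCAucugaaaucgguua
mmu-miR-29b-3p: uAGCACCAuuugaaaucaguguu
mmu-miR-29c-3p: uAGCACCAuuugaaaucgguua
The complement TGGTGCT was searched on the transcript strand of the 3′ untranslated region of 1 GENCODE transcript per gene (GRCm38). Eln has 3 matches in 1188 bases. Positions are given for the window of 23 bases around each match. For Eln these are chr5:134703736-134703758, chr5:134703489-134703511 and chr5:134703476-134703498, and the windows of the last 2 overlap. At least 1 match was present in 12% of the 3064 genes with a region of like length (0.8 to 1.25 times). In each line below, the match that the line is named for is in capitals. The line of Eln match 3 also holds match 2, in lower case.
Eln match 1: cgacctcatcaacgtTGGTGCTa
Eln match 2: atctccaagggaaatTGGTGCTa
Eln match 3: attggtgctacatgtTGGTGCTt
Fbn1 has 2 matches in 992 bases, in the windows chr2:125301173-125301195 and chr2:125300923-125300945 (9.95% of genes of like length hold at least 1).
Fbn1 match 1: tttctgttgtctgttTGGTGCTa
Fbn1 match 2: tgtgagggtttgtaaTGGTGCTt
Loxl2 has 2 matches in 2715 bases, in the windows chr14:69694733-69694755 and chr14:69695095-69695117 (24.5% of genes of like length).
Loxl2 match 1: ccccagctcatggaaTGGTGCTa
Loxl2 match 2: agatagcattgtgaaTGGTGCTa
Lox holds 3 matches in 3160 bases (27.3% of genes of like length). No match was present in Fbln1, Fbln5, Emilin1, Mfap4 or Loxl1, of whose length classes 12.6%, 35.4%, 3.69%, 9.15% and 11.7% of genes hold one. The genes with a match had log2 fold changes of -0.48 (Eln), -0.37 (Fbn1), -0.51 (Lox) and -0.73 (Loxl2), and those without one had 0.27 (Fbln1), -0.30 (Fbln5), -0.42 (Emilin1), 0.25 (Mfap4) and -0.063 (Loxl1). A match describes the letters and is not evidence of binding.

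Fbn1 encodes fibrillin-1, the backbone of the microfibril, at chr2:125126330-125332174 on the minus strand (mm9; 66 exon blocks). Its CPM were 1902, 1169 and 1451 in WT 1 to 3 and 1044, 1700 and 760.7 in KO 1 to 3. KO 1 and KO 3 were again the lowest, and KO 2 was above WT 2 and WT 3. The log2 fold change was -0.37 ± 0.35 (SE), with an adjusted p of 0.854 in edgeR, and it was -0.74 without KO 2, -0.17 without WT 1 and -0.14 without KO 3. Fbn1 followed Eln from library to library more closely than any other of 10279 genes with a mean of at least 10 CPM. The measure of likeness is the root mean square difference of the centred log2 CPM over the 6 libraries, and it was 0.0796 for this pair. The next most like Eln were Mrgprf (0.107), Cd109 (0.111), Emp3 (0.114) and Tmem45a (0.121), none of which passed the test.

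Mfap4, a glycoprotein that binds microfibrils and elastin, lies at chr11:61298946-61302206 on the plus strand (mm9; 6 exon blocks). It was read at 171.3, 85.70 and 136.4 CPM in WT 1 to 3 and at 137.3, 203.6 and 125.2 CPM in KO 1 to 3. WT 2 was the lowest library and KO 2 the highest. The means were 131 ± 43.0 CPM in WT and 155 ± 42.2 in KO, a log2 fold change of 0.25 ± 0.31 (SE) with an adjusted p of 0.900 in edgeR. The sign was not stable, since the value was -0.00032 without KO 2, 0.014 without WT 2 and 0.48 without WT 1.

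Fbln1 encodes fibulin-1, a matrix glycoprotein found with elastic fibres and in fibroblast-rich matrix, at chr15:85036438-85116724 on the plus strand (mm9; 17 exon blocks). The 6 values were 292.9, 113.6 and 210.6 CPM in WT and 209.4, 320.7 and 214.1 CPM in KO. The 3 KO libraries lay between or above the WT libraries, with WT 2 alone far below them. The means were 206 ± 89.7 CPM in WT and 248 ± 63.0 in KO, and the log2 fold change was 0.27 ± 0.37 (SE; adjusted p = 0.910, edgeR). Without WT 2 it was -0.022, without KO 2 it was 0.040 and without WT 1 it was 0.61. Fbln1 and Mfap4 formed a close pair (likeness 0.124), while Fbln1 and Loxl2 were the least alike of the 36 pairs (0.760).

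Fbln5 encodes fibulin-5, which binds tropoelastin and brings it to the microfibril, at chr12:102984775-103057329 on the minus strand (mm9; 11 exon blocks). Its CPM were 628.6, 456.8 and 601.0 in WT and 470.3, 575.9 and 321.1 in KO. Only KO 3 was below all WT libraries. The means were 562 ± 92.2 CPM in WT and 456 ± 128 in KO, with a log2 fold change of -0.30 ± 0.25 (SE; adjusted p = 0.821, edgeR), which was -0.10 without KO 3 and -0.51 without KO 2.

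Emilin1 encodes EMILIN-1, a glycoprotein at the interface of elastin and microfibrils, at chr5:31216159-31223646 on the plus strand (mm9; 8 exon blocks). Its CPM were 273.5, 197.8 and 272.8 in WT and 207.7, 231.2 and 115.5 in KO. All KO libraries were below WT 1 and WT 3, and WT 2 was below KO 1 and KO 2. The log2 fold change was -0.42 ± 0.29 (SE; adjusted p = 0.764, edgeR). Without KO 3 it was -0.18, and with both WT 2 and KO 3 left out it was -0.33 ± 0.12 (adjusted p = 0.410, edgeR). Fbln5 and Emilin1 were the second closest of the 36 pairs (likeness 0.113).

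**Figure D3:**
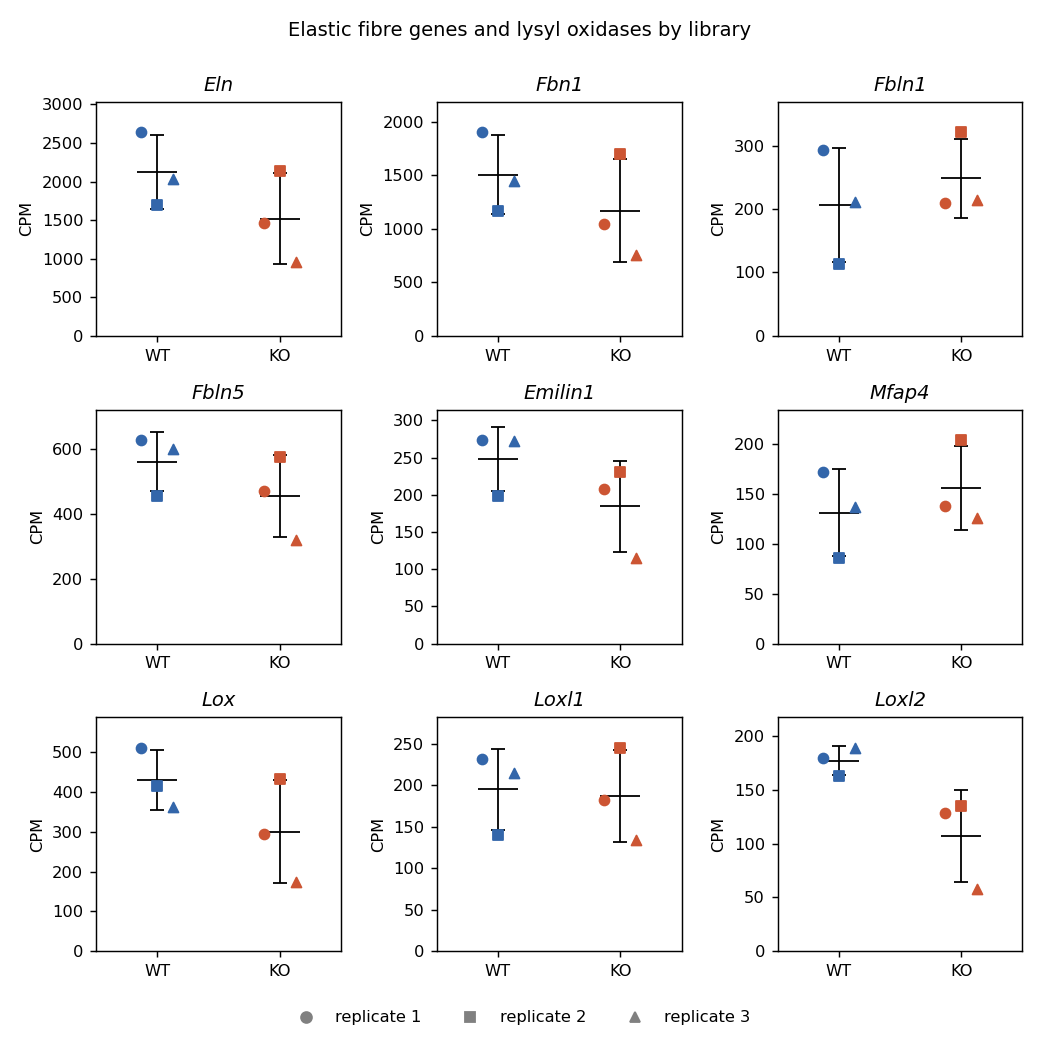
CPM of each gene in each library (symbols mark the replicate number), with the mean and SD of each group of 3 (lines); each axis starts at 0. Loxl2 alone shows no overlap, with KO at 58.13 to 134.9 CPM and WT at 162.4 to 189.1 CPM.

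Promoter windows, the 250 bases before an annotated start, were found in the RefSeq table (GRCm38.p6) for 4 of the 9 genes. Those of Fbn1 and Fbln1 are shown because the fold changes of these genes had opposite signs. Neither gene passed the test, and the value of Fbln1 was -0.022 without WT 2. The search, on both strands, was for the GC box (GGGCGG), the TATA box (TATAAA), a SMAD motif (CAGACA) and the CArG box of serum response factor. They occurred in 32.7%, 12.4%, 17.1% and 1.47% of 32851 windows. The Fbn1 window (chr2:125506439-125506688, minus strand) holds 1 GC box, in capitals, and 59.2% G or C.
Fbn1 promoter: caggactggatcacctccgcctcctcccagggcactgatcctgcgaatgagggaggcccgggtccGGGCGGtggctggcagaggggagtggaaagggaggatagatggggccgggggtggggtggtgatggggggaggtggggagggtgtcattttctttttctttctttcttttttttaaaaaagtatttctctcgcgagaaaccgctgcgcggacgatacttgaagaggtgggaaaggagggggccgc
The first of 2 Fbln1 windows (chr15:85205699-85205948, plus strand) holds 1 SMAD motif on its opposite strand, in capitals, and 46.4% G or C; the second, which overlaps it, holds the same SMAD motif, 1 GC box and 62.4% G or C.
Fbln1 promoter: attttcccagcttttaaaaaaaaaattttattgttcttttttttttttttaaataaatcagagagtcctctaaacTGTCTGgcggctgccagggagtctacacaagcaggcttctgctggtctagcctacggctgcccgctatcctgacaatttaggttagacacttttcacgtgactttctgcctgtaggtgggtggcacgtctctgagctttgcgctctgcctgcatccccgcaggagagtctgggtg
The median over all windows was 52.4% G or C. None of the 6 windows of the 4 genes holds the letters of a TATA or CArG box.

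Loxl2 encodes lysyl oxidase-like 2, a cross-linking enzyme known chiefly for collagen IV, at chr14:70009283-70095641 on the plus strand (mm9; 14 exon blocks, of which 7 bases are shared with Mir6950). It was read at 179.3, 162.4 and 189.1 CPM in WT 1 to 3 and at 128.1, 134.9 and 58.13 CPM in KO 1 to 3. Every KO library was below every WT library, the only such case among the 9. The means were 177 ± 13.5 CPM in WT and 107 ± 42.5 in KO, and the log2 fold change was -0.73 ± 0.32 (SE; 95% interval -1.50 to 0.054). It did not pass the test, with an unadjusted p of 0.0631 and an adjusted p of 0.630 in edgeR, and DESeq2 gave an adjusted p of 0.424. Without KO 3 the value was -0.43 and without KO 1 it was -0.94. With WT 2 and KO 3 left out it was -0.50 ± 0.11, with an adjusted p of 0.283. Per length Loxl2 was the least abundant of the 9 in all 6 libraries.

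Loxl1 encodes lysyl oxidase-like 1, the member of the family tied most closely to elastin, at chr9:58135530-58161019 on the minus strand (mm9; 7 exon blocks). Its CPM were 231.9, 140.0 and 214.6 in WT and 182.4, 245.3 and 133.6 in KO. Both groups spanned nearly the same range. The log2 fold change was -0.063 ± 0.29 (SE; 95% interval -0.76 to 0.63; adjusted p = 0.956, edgeR), and it was positive without WT 1 (0.077) or without KO 3 (0.13).

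Lox, the founding lysyl oxidase, acts on elastin and fibrillar collagen and lies on the minus strand of chromosome 18, from 52675714 to 52689521 (mm9; 8 exon blocks). Its CPM were 511.2, 415.1 and 362.0 in WT and 295.0, 432.4 and 174.5 in KO. All WT libraries exceeded KO 1 and KO 3, and KO 2 was above WT 2 and WT 3. The means were 429 ± 75.6 CPM in WT and 301 ± 129 in KO. The log2 fold change was -0.51 ± 0.34 (SE; adjusted p = 0.756, edgeR), with a value of -0.24 without KO 3 and of -0.87 without KO 2. The genes most like Lox across the 6 libraries were Hif1a (0.0714), Slc39a14 (0.0897), Ereg (0.0915), Sfrp4 (0.109) and Serpina3n (0.126). Hif1a, the oxygen-sensing transcription factor subunit, was read at 313.2, 258.5 and 238.9 CPM in WT and at 196.0, 253.3 and 117.1 CPM in KO, with a log2 fold change of -0.52 and an adjusted p of 0.697 in edgeR.

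Levels per length placed the 9 genes in a graded order. In WT, Eln at 561 ± 126 RPKM stood 3.69-fold above Fbn1 at 152 ± 37.4, and Fbn1 stood 1.6-fold above Fbln5 at 95.4 ± 15.7, with no overlap between these neighbours over the 3 libraries. Lox at 87.0 ± 15.3, Mfap4 at 86.7 ± 28.4, Emilin1 at 71.6 ± 12.6, Fbln1 at 61.2 ± 26.7 and Loxl1 at 58.6 ± 14.6 RPKM each overlapped with the next, as Fbln5 did with Lox. Loxl2 at 34.2 ± 2.61 RPKM lay apart below Loxl1. In KO the order of means was Eln (402 ± 156), Fbn1 (118 ± 48.7), Mfap4 (103 ± 27.9), Fbln5 (77.3 ± 21.7), Fbln1 (73.9 ± 18.7), Lox (60.9 ± 26.2), Loxl1 (56.1 ± 16.8), Emilin1 (53.4 ± 17.7) and Loxl2 (20.7 ± 8.20), in RPKM. Only Eln above Fbn1 and Emilin1 above Loxl2 had ranges that did not overlap there. Within libraries, Mfap4 was also above Fbln5, and Fbln1 above Lox, in all 3 KO libraries, though their ranges overlapped. All 9 were abundant transcripts, the lowest, Loxl2, ranking 1568th of 15937 genes in WT.

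Ratios between members of the set take out any shift common to all genes of a library and show unequal change only. These ratios were chosen after the values had been seen. Of the 36 pairs, 17 had ratios that did not overlap between KO and WT (47.2%), beside 18.0% of all pairs of genes at or above 10 CPM. In 1 of them, Fbln1 over Loxl2, the nearest WT and KO values were both 1.63. With WT 2 and KO 3 left out, 18 of 36 did not overlap, beside 43.3% of all pairs. Mfap4 took part in 7 of the 17, Loxl1 and Loxl2 in 5 each, Fbln1 in 4, Eln, Fbln5 and Emilin1 in 3 each, and Fbn1 and Lox in 2 each. Eln over Mfap4 was 15.4, 19.8 and 14.9 in WT and 10.7, 10.5 and 7.67 in KO, as a ratio of CPM. Eln over Fbln1 was 9.0, 14.9 and 9.64 in WT and 6.99, 6.66 and 4.48 in KO. In both ratios all KO libraries were below all WT libraries, KO 2 included. As geometric means, KO over WT was 0.574 for Eln over Mfap4 and 0.544 for Eln over Fbln1. With WT 2 and KO 3 left out, these values were nearer to equality, at 0.699 and 0.733. Eln over Fbn1 held between 1.39 and 1.45 in WT and 1.26 and 1.4 in KO, and overlapped. Fbln1 over Mfap4 was 1.33 to 1.71 in WT and 1.53 to 1.71 in KO, and overlapped too. Eln alone made up 38.6%, 38.3% and 37.1% of the counts of the 9 genes in WT 1 to 3, and 35.4%, 35.7% and 33.5% in KO 1 to 3.

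The members were also set against the markers of the cells that make elastic fibres, in the same library. These ratios, too, were chosen after the values had been seen. Relative to the summed smooth muscle markers, Eln was 27.9%, 31.9% and 27.5% in WT 1 to 3 and 16.7%, 15.1% and 17.0% in KO 1 to 3. The groups were far apart here, in contrast to the CPM themselves, and KO 2 had the lowest value. Lox was 5.41%, 7.80% and 4.90% in WT and 3.37%, 3.06% and 3.09% in KO, and Loxl2 was 1.90%, 3.05% and 2.56% in WT and 1.46%, 0.954% and 1.03% in KO. Every KO library was below every WT library for 7 of the 9 genes, beside 6.61% of the 10280 genes at or above 10 CPM. The exceptions were Fbln1 and Mfap4, which overlapped. The log2 difference was -0.84 for Eln, -0.90 for Lox and -1.12 for Loxl2, beside a median of -0.26 for all genes, and it was -0.80, -0.68 and -0.90 with WT 2 and KO 3 left out, beside -0.40. Taken against each of the 6 smooth muscle markers alone, Eln, Fbn1, Lox and Loxl2 had every KO library below every WT library for 5 markers, Fbln5 and Emilin1 for 4, Loxl1 for 2, and Fbln1 and Mfap4 for 0. Over all genes at or above 10 CPM, every KO library was below every WT library for 9.1% against Myh11, 1.3% against Acta2, 2.47% against Tagln, 9.33% against Smtn, 3.71% against Cnn1 and 10.8% against Lmod1. All 6 of these markers had a positive log2 fold change in KO, from 0.23 for Smtn to 0.40 for Myh11, and none passed the test. A ratio does not separate a lower numerator from a higher denominator.

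Relative to the summed fibroblast markers, with Lum among them, the picture was different. Eln was 45.2%, 42.5% and 43.7% in WT and 37.0%, 44.5% and 39.0% in KO, and overlapped. With Lum in the sum, no member had every KO library below every WT library (0.652% of the 10280 genes), and 7 of the 9 overlapped. This count does not carry over to a sum without Lum. The other two had every KO library above every WT library, as did 16.7% of the 10280 genes. Fbln1 was 5.02%, 2.84% and 4.53% in WT and 5.29%, 6.68% and 8.70% in KO, and Mfap4 was 2.94%, 2.15% and 2.94% in WT and 3.47%, 4.24% and 5.09% in KO. The 6 fibroblast markers did not move as one. Pi16, Dpt and Cd34 had log2 fold changes of 0.11, 0.14 and 0.12, Pdgfra of -0.048, Dcn of -0.20 and Lum of -1.10, and none passed the test. Lum, the proteoglycan lumican, was the only one of the 6 without overlap, at 1815, 1625 and 1554 CPM in WT and 991.0, 1054 and 286.7 CPM in KO. The comparison with the sum depends on Lum. Relative to Dcn, Pdgfra, Pi16, Dpt or Cd34 alone, Eln was lower in every KO library than in every WT library. Relative to Lum alone the direction was reversed, with Eln higher in every KO library than in every WT library. The matching shares of all genes were not computed, and these single-marker comparisons were chosen after the values had been seen. They are therefore not read as a result about Eln.

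**Figure D4:**
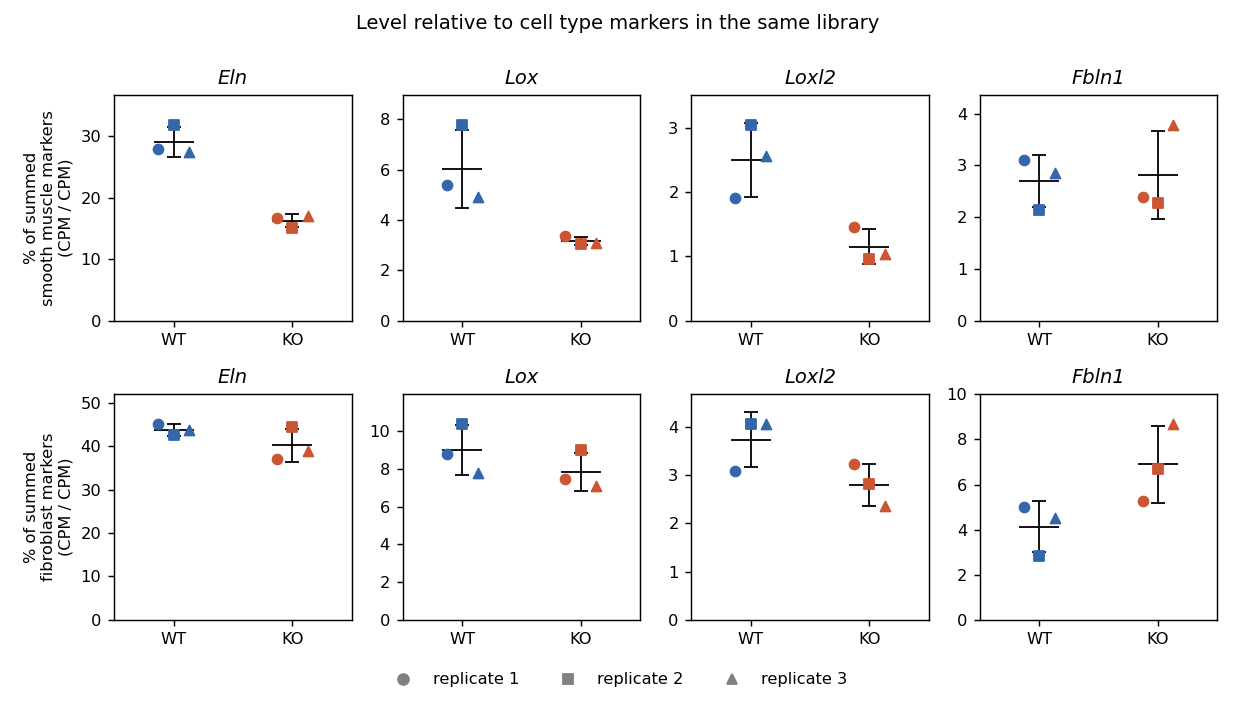
CPM of Eln, Lox, Loxl2 and Fbln1 as a percent of the summed smooth muscle markers (top) and of the summed fibroblast markers (bottom) of the same library, with the mean and SD of each group of 3; symbols mark the replicate number. Eln is at 27.5% to 31.9% in WT and 15.1% to 17.0% in KO against smooth muscle markers, and at 42.5% to 45.2% and 37.0% to 44.5% against fibroblast markers.

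Of 22 partner genes of the elastic fibre (further fibrillins, fibulins, microfibril proteins, EMILINs, latent TGF-beta binding proteins and ADAMTS-like proteins), 13 were higher and 9 lower in KO (39.1% of all genes were lower). Their median log2 fold change was 0.063 beside 0.068 for all genes. None passed the test. For 2 of the 22, Ltbp2 and Emilin3, every KO library was below every WT library (8.38% of all genes). For 2 others, Hmcn1 and Adamtsl2, every KO library was above every WT library (8.33% of all genes). Ltbp2, a latent TGF-beta binding family protein found on microfibrils, was read at 744.5, 811.3 and 854.2 CPM in WT and at 540.9, 490.5 and 164.7 CPM in KO. Every KO library was below every WT library, KO 3 by far the lowest. The log2 fold change was -1.01 ± 0.43 (SE; adjusted p = 0.629, edgeR), and -0.64 without WT 2 and KO 3. Hmcn1, hemicentin-1, was the partner with the smallest unadjusted p (0.0391), at 14.1 ± 1.27 CPM in WT and 19.2 ± 3.55 in KO with an adjusted p of 0.616 and a log2 fold change of 0.44, which was 0.28 without KO 3. Emilin3, an EMILIN family glycoprotein of low level, was at 1.44 ± 0.045 and 0.954 ± 0.090 CPM, with an adjusted p of 0.617. Adamtsl2, a microfibril-associated protein, was at 19.8 ± 8.64 and 30.1 ± 1.30 CPM, with an adjusted p of 0.709. WT 2 was the low library, at 9.84 CPM against 24.27 and 25.30 in the other WT libraries, and the log2 fold change of Adamtsl2 went from 0.60 to 0.28 without it.

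Among 12 genes of lysyl oxidase processing and copper supply, 6 were higher and 6 lower in KO, beside 39.1% of all genes lower. Their median log2 fold change was 0.0040 beside 0.068, and none passed the test. Of the higher genes, Slc31a1, Atp7a and Tll2 were high mainly in WT 2 and KO 3, the libraries with high neuron markers. Slc31a1 was at 43.18, 215.6 and 42.37 CPM in WT and at 34.73, 38.34 and 372.1 CPM in KO. The part of these libraries in the even split was not tested. Atox1, the copper chaperone that feeds the secretory pathway, was at 47.72, 43.70 and 43.25 CPM in WT and at 34.56, 36.72 and 36.69 CPM in KO. The groups did not overlap and the spread within each was small, with a log2 fold change of -0.32 ± 0.10 (SE; unadjusted p = 0.0168, adjusted p = 0.587, edgeR). Fn1, fibronectin, which binds the lysyl oxidase precursor and its activating protease, was at 10770, 9771 and 11580 CPM in WT and at 6690, 6529 and 1954 CPM in KO. All KO libraries were again below WT, KO 3 the lowest, and the log2 fold change was -1.08 ± 0.51 (SE; adjusted p = 0.661, edgeR), and -0.70 without KO 3. Loxl3, another family member, was at 104 ± 3.66 CPM in WT and 78.5 ± 22.3 in KO without overlap (adjusted p = 0.692), a log2 fold change of -0.40 that was -0.19 without KO 3. Bmp1, the protease that cleaves the precursor, was at 199 ± 24.8 and 160 ± 42.4 CPM and overlapped (adjusted p = 0.790), with a log2 fold change of -0.31 that was -0.11 without KO 3. Every KO library was below every WT library for 3 of the 12 (8.38% of all genes) and above for 0 (8.33%).

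The 14 elastase and elastin receptor genes gave 12 that could be tested, since Mmp7 was listed at 0 and Elane had at most 2 counts in a library. Of the 12, 11 were lower and 1 higher in KO, beside 39.1% of all genes lower. The list median was -0.62 on the log2 scale, beside 0.068. In 7 of the 12 every KO library was below every WT library, as in 8.38% of all genes. None passed the test. Mmp2, gelatinase A, was at 447.8, 391.0 and 410.4 CPM in WT and at 303.0, 320.9 and 189.4 CPM in KO, a log2 fold change of -0.62 ± 0.22 (SE; unadjusted p = 0.0306, adjusted p = 0.589, edgeR). Mmp14, the membrane protease that activates it, was at 216.9, 198.7 and 226.5 CPM in WT and at 140.5, 149.5 and 57.26 CPM in KO, a log2 fold change of -0.89 ± 0.36 (SE; unadjusted p = 0.0469, adjusted p = 0.617, edgeR) that was -0.56 without KO 3. For both genes KO 3 was the lowest library and the groups did not overlap. Glb1 and Ctsa, whose products belong to the elastin receptor complex and the lysosome, were at 48.2 ± 3.68 and 242 ± 25.3 CPM in WT and at 38.1 ± 5.72 and 168 ± 48.8 in KO, with adjusted p-values of 0.629 and 0.644 (edgeR). Their log2 fold changes of -0.34 and -0.53 were -0.22 and -0.31 without KO 3. The macrophage elastase Mmp12 overlapped between groups, at 352.9, 459.1 and 711.3 CPM in WT and 545.9, 400.7 and 47.72 CPM in KO. The macrophage markers moved with this list: 6 of 6 were lower in KO and their sum was below the WT range in all 3 KO libraries. Their part in it was not tested.

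**Figure D5:**
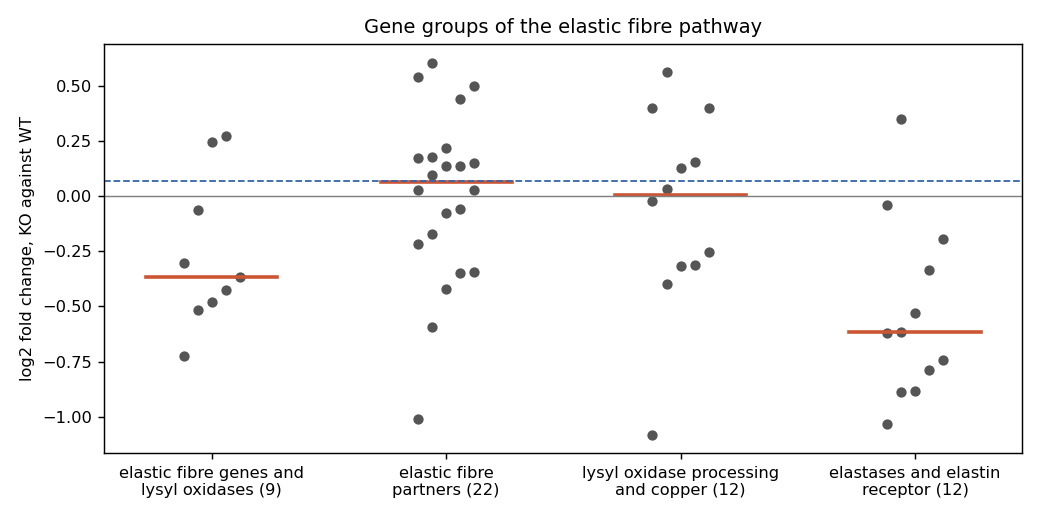
Log2 fold change, KO against WT, of each tested gene (dots) in the set and in the 3 lists of related genes, with each list's median (red line) and the median of all genes (dashed line). Medians are -0.37 for the 9 genes, 0.063 for the partners, 0.0040 for lysyl oxidase processing and -0.62 for elastases and the elastin receptor.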

How the data were processed

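The authors deposited unnormalized counts, 1 value per gene and library. The counter was featureCounts 1.4.6-p4 with exons of an mm9 annotation and no strand option, per the file headers. The submitters' processing notes also name CASAVA, DESeq2, Subread and STAR, with 3.0 as the version of STAR. Of all alignments, 32.6% to 36.9% were assigned to genes, and reads over exons of several genes were not counted (0.347% to 0.448%). RNA of 6 libraries, 3 per group, was compared with edgeR 4.0.16 in R 4.3.3 (two-sided quasi-likelihood test, TMM normalization, filterByExpr with a minimum count of 10, Benjamini-Hochberg adjustment over 15937 genes, threshold 0.05). DESeq2 1.42.0 and limma 3.58.1 were alternatives. The script was tested on simulated data. There edgeR recovered 67 of 100 changes of 4-fold and 1 of 100 changes of 2-fold. A gene that did not pass the test is thus not shown to be unchanged. CPM and RPKM are TMM-scaled, RPKM with the exon length of the count table, and log2 CPM used a prior count of 2. No pair of libraries had counts within sampling noise of each other.

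The members and lists were chosen with earlier results of these data known. Besides the 9 genes and Col15a1, the text names up to 4 genes per list with the smallest unadjusted p, the 5 genes most like Eln and the 5 most like Lox, and the 2 highest markers of a cell type. Mmp12, Lum, Mmp7, Elane, Slc31a1, Atp7a and Tll2 were named after their values had been seen. So were the further smooth muscle markers (Tagln, Smtn, Cnn1 and Lmod1) and fibroblast markers (Pdgfra, Pi16, Dpt and Cd34). Sequences came from RefSeq (GRCm38.p6) and GENCODE M21 (GRCm38) and share no coordinates with the counts.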

Additional observations from a re-analysis of the deposited data

How the results depend on the processing

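Over all genes, DESeq2 called 63 (33 higher and 30 lower in KO) and edgeR without WT 2 and KO 3, an alternative chosen after seeing the data, called 1 (lower, adjusted p = 0.0386), against 0 in edgeR with all libraries. The cause was not tested. Col15a1 passed in DESeq2 (log2 fold change -1.64). No member passed under any of 17 settings, and the signs of 6 members were the same in all of them. The exceptions were Loxl1 (0.077 without WT 1 and 0.13 without KO 3), Fbln1 (-0.022 without WT 2) and Mfap4 (-0.00032 without KO 2). Leaving out 1 library at a time, Loxl1 ran from -0.31 to 0.13, Fbln1 from -0.022 to 0.61 and Mfap4 from -0.00032 to 0.48, 0 to 0 genes were called, 6 to 8 members were negative, and the members' median ran from -0.62 (without KO 2) to -0.14 (without KO 3). The ratios between members that did not overlap ran from 17 (without WT 2 or without KO 3, beside 29.1% and 31.7% of all pairs) to 25 of 36 (without KO 1, beside 27.5%). The genes below WT relative to smooth muscle markers ran from 7 to 8 of 9, with 8 without KO 3, where 32.2% of all genes were below. They were 9 without WT 2 and KO 3, where 32.4% of all genes were below, against 6.61% with all libraries. The replicate numbers were not treated as pairs. The correlation of same-numbered deviations was 0.43, -0.68 and -0.58 for numbers 1 to 3. WT 2 and KO 3, which stood apart over all genes, carry different numbers and weigh on these values. The correlations therefore cannot decide whether same-numbered animals were paired. With a replicate block edgeR called 0 genes, as without it.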
